A study of Mus musculus with 56 samples.

Results

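The livers of 8 mice that stayed on AMLN diet and received zalfermin together with semaglutide were compared with the livers of 8 chow-fed mice that received vehicle, 16 of the 56 mice of the series. All mice of both groups were selected by their treatment and diet labels, and the question was which genes still differed from healthy liver at the end of combined dosing. The mice were male C57BL/6J, 5 to 6 weeks old when they arrived. The AMLN diet, rich in fat, fructose and cholesterol, was given for 36 weeks before dosing and during dosing, and produces obesity with steatohepatitis and fibrosis (DIO-MASH). Zalfermin is a long-acting analog of fibroblast growth factor 21 (FGF21), and semaglutide is an agonist of the receptor for glucagon-like peptide-1. Per the study's methods, dosing was subcutaneous and daily for 8 weeks, at 0.05 mg/kg zalfermin with 3 µg/kg semaglutide in the combination group. The series' design text names the high dose of both drugs for this group, so the dose is given here as the methods state it. Dosed animals were allocated after a liver biopsy, so every AMLN-fed liver had been sampled once before. The 8 AMLN-fed mice dosed with vehicle (DIO-MASH vehicle) are given beside the combination, as are the 8 mice each on high-dose zalfermin (0.2 mg/kg) and high-dose semaglutide (120 µg/kg) for the genes named below. The labels carry no replicate pairing. Combination and chow differ in both diet and drug, whereas DIO-MASH vehicle against chow differs in diet, and combination against DIO-MASH vehicle differs in drug on the same diet.

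Steatohepatitis joins fat storage in hepatocytes with hepatocyte injury, an influx of macrophages that take up lipid and dead cells, and the deposition of collagen by hepatic stellate cells. Cholesterol eaten in the diet lowers the liver's own sterol synthesis through retention of the transcription factor SREBP-2 in the endoplasmic reticulum. Many liver enzymes of detoxification and steroid metabolism are made mostly in one sex, a pattern set in rodents by the timing of growth hormone pulses. FGF21 acts on cells that carry an FGF receptor together with the co-receptor beta-klotho, and GLP-1 receptor agonists reduce food intake through the brain.

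Per mouse, 6850790 to 17810943 reads were counted on genes in the combination group and 5228187 to 17157826 in the chow group. Of 21935 genes in the table, 14105 had 5 or more reads in 3 or more mice and were tested. Levels are in CPM, read counts scaled to a common total in each normalized library. Unless another test is named, an adjusted p is the Benjamini-Hochberg value of edgeR's quasi-likelihood test over these genes in a fit of all 56 mice, two-sided, with a threshold of 0.05, and a ± beside a log2 fold change is its standard error. Hepatocyte markers such as Alb and Ttr were present in all 16 livers, and their summed level was 86631 to 143474 CPM in the combination group and 147758 to 236239 CPM in the chow group.

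Chow mouse 8 stood apart from the other 7 chow mice in several genes, which were chosen with earlier results of these data known. It had 1387 CPM of Tff2, a trefoil peptide of mucous epithelium, against at most 0.270 in the other chow mice. Vil1, which codes for the microvillus protein villin, was at 272 CPM in it and at most 0.870 in the others, and Krt19, a keratin of bile duct and gut epithelium, was at 156 CPM against at most 4.21. Its levels of Lgals4, Epcam, Cldn7, Plac8 and Jchain were also the highest of the chow group. Of 12 listed markers of gallbladder, small intestine and stomach epithelium, 5 had enough reads to be tested. Their summed level was 2135 CPM in it, of which Tff2 gave 1387, and 22.4 to 45.8 CPM in the other 7. Without this mouse, the log2 fold change of combination against chow turned from -1.53 to 1.86 for Krt19, from -0.36 to 2.03 for Epcam, from -0.90 to 1.94 for Cldn7 and from -1.48 to 1.35 for Plac8. The smooth muscle genes Acta2, Myl9 and Cnn1, the granzyme Gzma and the acyltransferase Mogat2 were called lower with this mouse and did not pass without it. The comparison was made with 8 and with 7 chow mice, and values without mouse 8 stand beside those they changed.

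**Figure D1:**
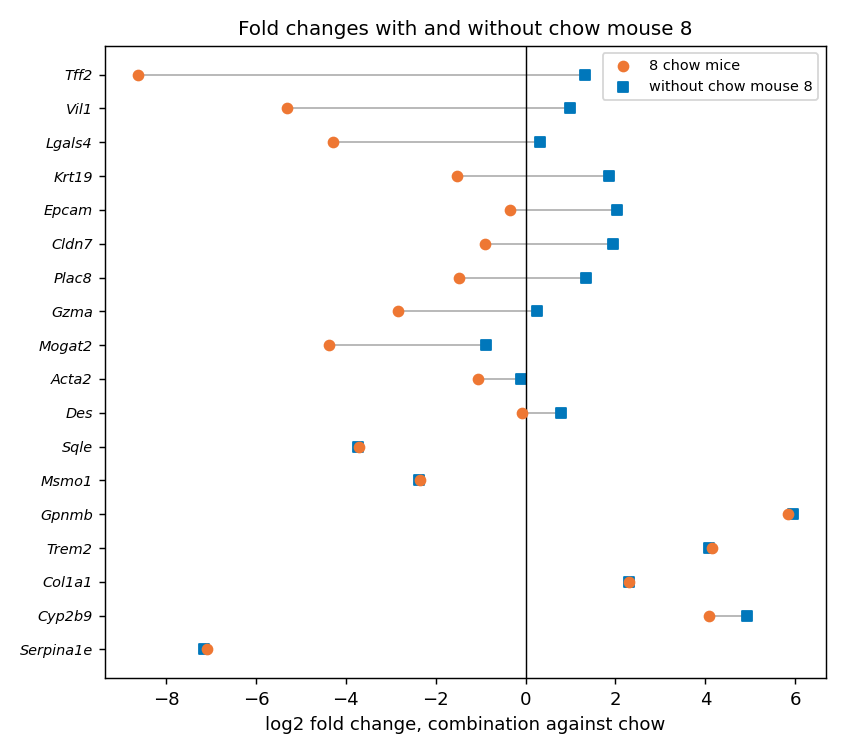
Log2 fold change of combination against chow (horizontal axis) for 18 genes, with all 8 chow mice (circles) and without chow mouse 8 (squares). Tff2, Vil1, Lgals4, Krt19, Epcam, Cldn7, Plac8, Gzma and Des cross the zero line when the mouse is left out, while Sqle, Msmo1, Gpnmb, Trem2, Col1a1 and Serpina1e stay close to their first value.

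Of the 14105 genes, 4570 (32.4%) differed between combination and chow, 2457 higher (17.4%) and 2113 lower (15.0%) in the combination group. Differences of at least 2-fold were mostly increases, with 1363 genes higher (9.66%) and 328 lower (2.33%). In 374 genes (2.65%) the 8 combination mice and the 8 chow mice did not overlap, 178 higher (1.26%) and 196 lower (1.39%). Without chow mouse 8 the totals were 4598 genes (32.6%), 2668 higher (18.9%) and 1930 lower (13.7%). For DIO-MASH vehicle against the same chow mice, 7811 genes passed (55.4%), 4072 higher (28.9%) and 3739 lower (26.5%). Directly between combination and DIO-MASH vehicle, 2953 genes differed (20.9%), 1417 higher (10%) and 1536 lower (10.9%) in the combination group. These comparisons share mice, so each gene's values are set side by side below and no overlap between them is counted. Counts of list members below are to be read beside the shares of all genes given here. The median log2 fold change over all genes was -0.0017 for combination against chow and 0.0072 for DIO-MASH vehicle against chow.

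**Figure D2:**
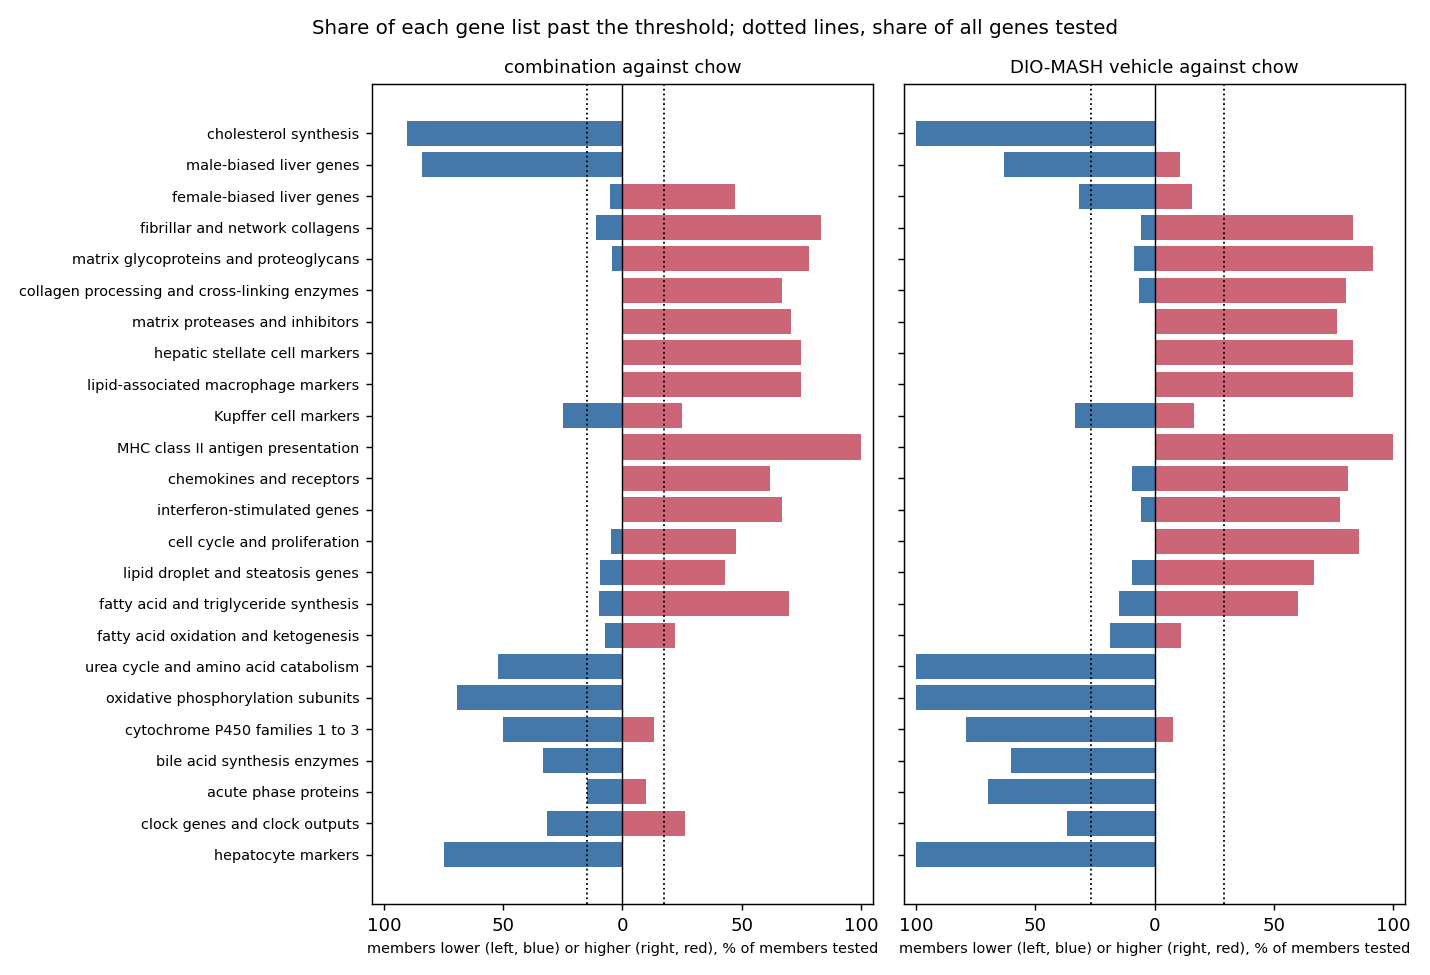
Share of the tested members of 24 gene lists that were higher (right) or lower (left) than in chow, in percent, for combination against chow (left panel) and DIO-MASH vehicle against chow (right panel). Dotted lines mark the shares of all tested genes, 17.4% higher and 15.0% lower for the combination and 28.9% higher and 26.5% lower for vehicle. Both panels use the same 8 chow mice.

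Genes of cholesterol synthesis remained low under the combination. Of 21 tested members of the pathway, 19 were lower than in chow and none was higher, with a median log2 fold change of -0.87 over all 21, and 9 members did not overlap between the groups. In DIO-MASH vehicle all 21 were lower than in chow, with a median of -1.30. Compared directly with vehicle, 5 members were higher in the combination and none was lower.

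Sqle codes for squalene epoxidase, which makes the first oxygenated sterol precursor. Its level was 96.9 to 210.3 CPM (median 121) in chow, 5.09 to 21 CPM (median 8.42) in the combination and 2.54 to 20.9 CPM (median 9.98) in DIO-MASH vehicle. Every combination mouse was below every chow mouse, the fitted difference was 13-fold (log2 -3.70 ± 0.45, adjusted p = 1.78e-08), and the combination did not pass against vehicle (log2 -0.15 ± 0.44, adjusted p = 0.839). Sqle lies on the plus strand of chromosome 15 at chr15:59315077-59331192 of GRCm38. Idi1, the isomerase that forms the reactive isoprene unit, was between 14.7 and 37.8 CPM, with a median of 21, in chow and between 2.87 and 5.92 CPM, with a median of 4.72, in the combination, with no overlap (log2 -2.36 ± 0.26, adjusted p = 7.63e-10). Msmo1, a sterol methyl oxidase, was between 133 and 398 CPM, with a median of 307, in chow and between 46.3 and 69.1 CPM, with a median of 57.3, in the combination, again with no overlap (log2 -2.36 ± 0.20, adjusted p = 7.3e-13). The demethylating enzymes Nsdhl and Cyp51 were 3.96-fold and 3.81-fold lower, and mevalonate kinase Mvk was 2.85-fold lower, each without overlap. The 2 members that did not pass were Mvd (log2 -0.64 ± 0.35, and -0.95 with an adjusted p of 0.0338 without combination mouse 6) and Sc5d (log2 -0.22 ± 0.15). The gene of SREBP-2 itself, Srebf2, was 1.22-fold lower (adjusted p = 0.0279).

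The promoters of 3 members that fell together are shown, because the list moved almost as a whole. They are RefSeq windows from 250 bases before to 50 after the start of the gene on GRCm38.p6, read 5′ to 3′ on the gene's strand, for Hmgcs1 (chr13:119690101-119690400, plus strand), Msmo1 (chr8:64733529-64733828, minus strand) and Idi1 (chr13:8885356-8885655, plus strand). Capitals mark CCAAT, the motif read by NF-Y, and TCACNCCA, the core letters of the sterol regulatory element, on either strand.
Hmgcs1: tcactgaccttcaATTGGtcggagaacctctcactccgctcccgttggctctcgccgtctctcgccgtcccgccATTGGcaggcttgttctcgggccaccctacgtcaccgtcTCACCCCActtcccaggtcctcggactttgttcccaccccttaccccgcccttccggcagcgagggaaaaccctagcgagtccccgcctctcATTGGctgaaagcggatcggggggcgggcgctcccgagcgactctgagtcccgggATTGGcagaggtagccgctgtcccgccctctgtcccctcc
Msmo1: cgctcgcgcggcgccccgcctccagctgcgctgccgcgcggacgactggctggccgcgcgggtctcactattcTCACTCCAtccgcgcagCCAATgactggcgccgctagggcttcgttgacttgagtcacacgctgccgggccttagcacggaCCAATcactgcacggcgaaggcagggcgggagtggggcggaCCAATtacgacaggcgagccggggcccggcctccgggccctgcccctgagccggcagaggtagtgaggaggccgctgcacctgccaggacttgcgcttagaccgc
Idi1: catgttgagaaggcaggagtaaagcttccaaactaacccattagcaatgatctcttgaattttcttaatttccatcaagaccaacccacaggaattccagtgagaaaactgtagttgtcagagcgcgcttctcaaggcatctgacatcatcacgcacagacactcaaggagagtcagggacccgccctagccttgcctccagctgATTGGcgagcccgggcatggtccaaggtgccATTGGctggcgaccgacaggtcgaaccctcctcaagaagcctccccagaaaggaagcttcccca

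Promoter windows were found for 16 of the 21 pathway members. CCAAT or its reverse complement stood in 15 of these 16 and in 41.1% of the 27025 gene symbols with a window. TCACNCCA stood in the windows of 3 members, Srebf2, Hmgcs1 and Msmo1, and in 4.97% of all symbols. The longer TCACNCCAC stood in the window of 1 member, Hmgcs1, and in 1.44% of all, and CACNCCAC, which overlaps it, stood in 2 members, Acat2 and Hmgcs1, and in 7.12% of all. A match is a string of letters in this window and does not show binding.

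Genes around sterol synthesis were mixed. In the list of cholesterol uptake, sensing and export, 5 of 19 tested members were higher and 5 lower. Scap, the escort protein of SREBP-2, was 1.80-fold lower without overlap, and Stard4, a sterol transfer protein, was 2.20-fold lower without overlap. The cholesterol exporter Abcg1 was 2.89-fold higher without overlap, at 11.1 to 28.2 CPM (median 17.5) against 3.32 to 10.9 CPM (median 6.40), and the cholesterol esterifying enzyme Soat1 and Insig2 were 2.80-fold and 2.52-fold higher.

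**Figure D3:**
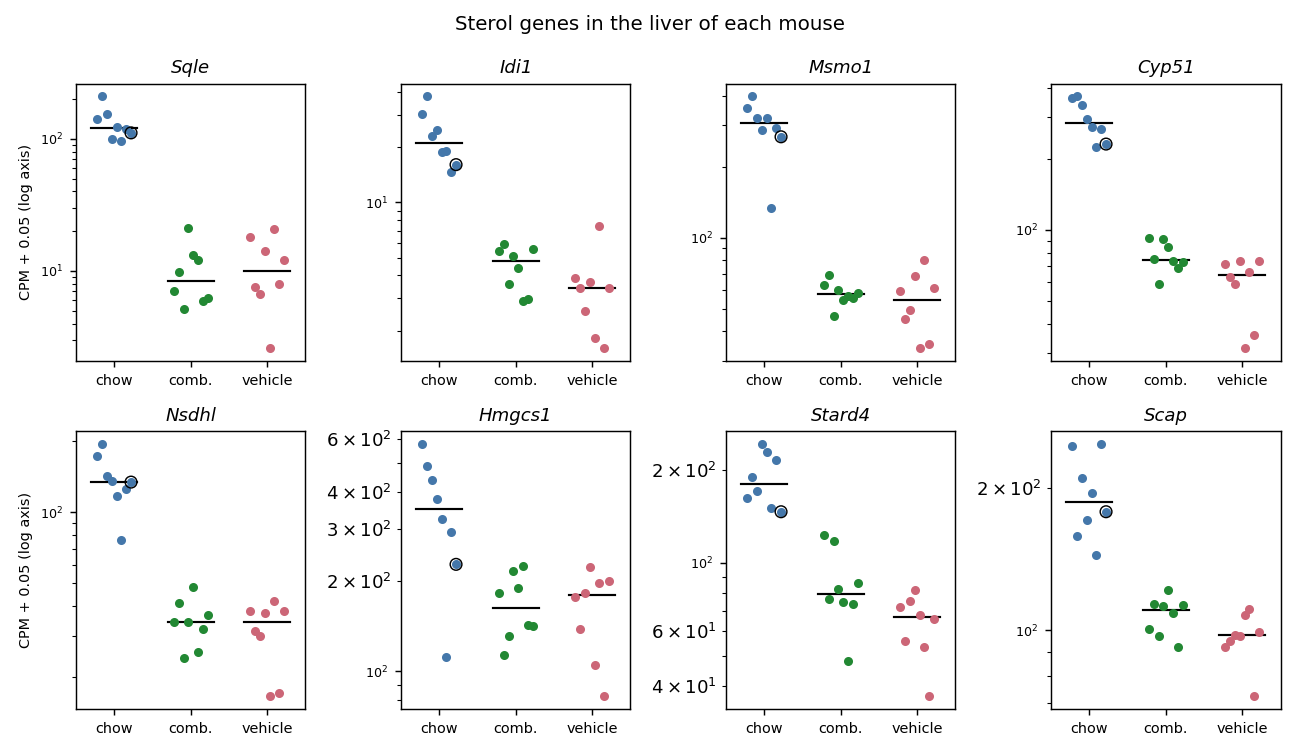
Level of 8 sterol genes in each mouse (CPM plus 0.05, log axis) in chow, combination (comb.) and DIO-MASH vehicle (vehicle). Each point is 1 mouse, the line is the group median and the ring marks chow mouse 8. For Sqle, Idi1, Msmo1, Cyp51, Nsdhl, Stard4 and Scap all 8 combination mice lie below all 8 chow mice, while Hmgcs1 overlaps.

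Sex-biased liver genes differed from those of the healthy males in the female direction. Of 19 tested male-biased genes, 16 were lower than in chow and none higher, with a median log2 fold change of -1.80. Of 19 tested female-biased genes, 9 were higher and 1 lower, and 11 were higher without chow mouse 8. DIO-MASH vehicle had 2 male-biased genes higher and 12 lower, and 3 female-biased genes higher and 6 lower. Directly against vehicle, 13 female-biased genes were higher in the combination and 7 male-biased genes were lower. No member of either list passed against high-dose zalfermin, where 0.503% of all genes passed. Against high-dose semaglutide, 4 female-biased genes were higher and 4 male-biased genes lower, where 1.89% of all genes passed.

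Cyp2b9, a female-predominant cytochrome P450 on the plus strand at chr7:26173411-26210661 of GRCm38, was between 0 and 34.8 CPM, with a median of 4.86, in chow and between 51.8 and 351 CPM, with a median of 96.7, in the combination. The groups did not overlap (log2 4.09 ± 0.80, adjusted p = 7.86e-05), although the highest chow value, 34.8 CPM, was that of chow mouse 8, without which the log2 fold change was 4.92. In DIO-MASH vehicle it was 0.691 to 33.5 CPM (median 4.27), which did not pass against chow (adjusted p = 0.943), and the direct test against vehicle passed (log2 4.01 ± 0.78, adjusted p = 0.000142). Cyp2a4, a steroid 15-alpha-hydroxylase of female liver at chr7:26307169-26315088, was between 0.0901 and 1.35 CPM, with a median of 0.677, in chow and between 16.4 and 127 CPM, with a median of 90.8, in the combination. This was a 101-fold difference without overlap (log2 6.65 ± 0.72, adjusted p = 4.52e-10), and vehicle lay between, at 1.64 to 25.9 CPM (median 6.54). Cyp2b13 was higher by log2 5.33 ± 0.73, from 4.74 without combination mouse 4 to 6.03 without chow mouse 4. The organic anion transporter gene Slc22a27 was 4.91-fold higher, both genes without overlap, and the steroid 17-alpha-hydroxylase gene Cyp17a1 was 6.40-fold higher with overlap.

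Among male-biased genes, the fitted fall of Hsd3b5, a ketosteroid reductase of male liver, was the largest (log2 -8.46 ± 1.62, adjusted p = 6.01e-05). It was at 0.226 to 167 CPM (median 93.1) in chow and 0 to 0.617 CPM (median 0.24) in the combination. The groups overlapped through 1 mouse, chow mouse 2, at 0.226 CPM, where the other chow mice had 28.9 or more. The same mouse had the lowest chow value of the transporter Slco1a1, 5.49 CPM against 198 or more, and of Cyp4a12a, 36.2 CPM against 77.9 or more. Slco1a1 was 11.4-fold and Cyp4a12a 7.89-fold lower in the combination. Cyp4a12a, an arachidonic acid hydroxylase, did not pass between vehicle and chow (log2 0.21 ± 0.36, adjusted p = 0.64), and it was lower in the combination than in vehicle (log2 -3.19 ± 0.40, adjusted p = 4.96e-08). Cyp2d9 and the glutathione transferase Gstp1 were 3.19-fold and 3.74-fold lower without overlap. Mup20, a urinary pheromone-binding protein, did not pass against chow (log2 0.07 ± 0.26, adjusted p = 0.864), nor did Serpina12 (log2 -0.03 ± 0.19, adjusted p = 0.921). Reads of the Cyp2a, Cyp2b, Cyp4a, Gstp, Mup and Serpina1 families come from close copies, and how the counting divided them is not given in the sources used here, so single members of these families are uncertain.

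Serpina1e, an alpha-1-antitrypsin family member at chr12:103946931-103958975 on the minus strand, had the largest fall of the genes without overlap and with a mean of at least 1 CPM. It was between 4487 and 14968 CPM, with a median of 6452, in chow, and between 17.8 and 148 CPM, with a median of 48.8, in the combination (log2 -7.09 ± 0.90, adjusted p = 3.53e-08). Vehicle was also far below chow, at 52.3 to 652 CPM (median 155), and the combination was below vehicle (log2 -2.29 ± 0.73, adjusted p = 0.0183). Cyp4a14, a fatty acid omega-hydroxylase and target of PPAR-alpha, was between 53.7 and 647 CPM, with a median of 325, in chow and between 902 and 2501 CPM, with a median of 1428, in the combination, without overlap (log2 2.41 ± 0.35, adjusted p = 6.02e-07). Vehicle did not pass against chow for Cyp4a14 (log2 -0.04 ± 0.33). Cyp4a10 was 2.62-fold higher than in chow with overlap.

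**Figure D4:**
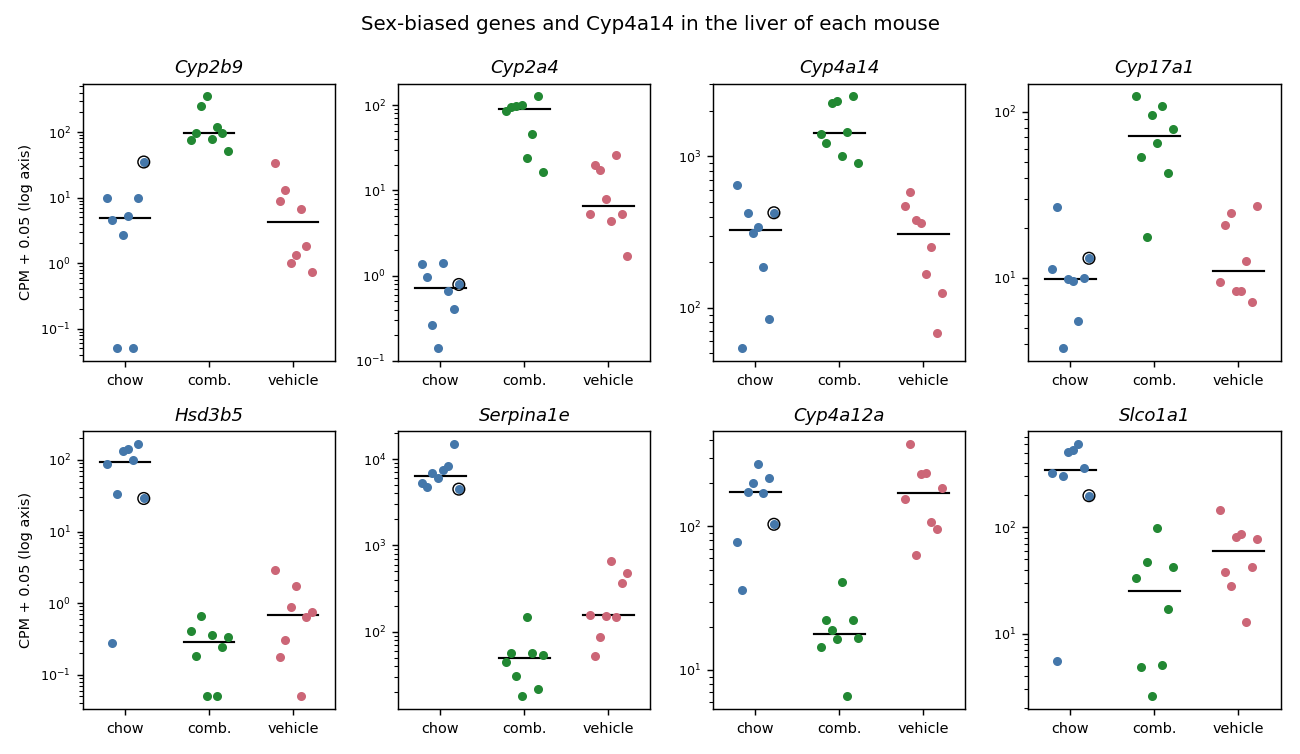
Level of 7 sex-biased or serpin genes and Cyp4a14 in each mouse (CPM plus 0.05, log axis), drawn as for the sterol genes. Cyp2b9, Cyp2a4 and Cyp4a14 are above chow in all 8 combination mice, Serpina1e is below chow in all 8, and 1 chow mouse lies far below the others for Hsd3b5 and Slco1a1.

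Genes of fibrosis remained above healthy liver, and most collagens were below untreated disease. Of 18 tested collagens, 15 were higher than in chow and 2 lower (median log2 fold change 1.41), and in vehicle 15 were higher and 1 lower (median 2.71). Of 23 tested matrix glycoproteins and proteoglycans, 18 were higher and 1 lower, and without chow mouse 8 the counts were 19 and 0. Collagen processing enzymes had 10 of 15 higher, 9 without chow mouse 8, and matrix proteases and inhibitors 12 of 17 higher, with none lower in either list. Directly against vehicle, 16 of the 18 collagens were lower in the combination and 1 was higher.

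Col1a1, the main chain of type I collagen, was between 5.10 and 28.3 CPM, with a median of 10.2, in chow, between 11 and 119 CPM, with a median of 57.3, in the combination and between 123 and 344 CPM, with a median of 284, in vehicle. The combination overlapped chow through combination mouse 3, at 11 CPM, and the difference from chow was 4.91-fold (log2 2.30 ± 0.40, adjusted p = 1.54e-05). Col3a1 was 3.19-fold higher than in chow (adjusted p = 5.88e-05), and Col6a3, of microfibrillar collagen VI, was 5.34-fold higher without overlap (adjusted p = 1.29e-06). The lower members were Col5a3 (log2 -0.65 ± 0.22, not past the threshold without combination mouse 2) and Col18a1, the parent of endostatin (log2 -0.31 ± 0.09). Lumican, a collagen-binding proteoglycan (Lum), was at 3.55 to 11.1 CPM (median 6.14) in chow and 12.6 to 46.7 CPM (median 31.3) in the combination, with no overlap (log2 2.26 ± 0.40, adjusted p = 1.87e-05). Its difference from vehicle did not pass (log2 -0.84 ± 0.36, adjusted p = 0.0857). Thbs2 and Dpt were likewise 4.33-fold and 5.04-fold above chow, and neither passed against vehicle (adjusted p = 0.0897 and 0.0884). Postn and Fn1, which code for periostin and fibronectin, did not pass against chow (log2 -0.37 ± 0.27 and -0.01 ± 0.12). Vtn, vitronectin, was lower with 8 chow mice (adjusted p = 0.0424) and did not pass with 7 (adjusted p = 0.0669) or without any 1 of several other mice.

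Timp1, an inhibitor of matrix proteases, was at 0 to 0.527 CPM (median 0.207) in chow and 0.308 to 3.77 CPM (median 1.97) in the combination (log2 3.18 ± 0.51, adjusted p = 3.44e-06). The protease Mmp2 was 5.17-fold and Mmp14 1.72-fold higher than in chow, and the Mmp14 level did not pass against vehicle (log2 0.18 ± 0.16, adjusted p = 0.435). Of 12 stellate cell markers, 9 were higher than in chow and none lower, and 11 were higher without chow mouse 8, whose Des level was 49.5 CPM against at most 10.5 in the other chow mice. Des, the filament protein of stellate and muscle cells, changed from log2 -0.08 to 0.78 without that mouse. The platelet-derived growth factor receptors Pdgfra and Pdgfrb were 3.54-fold and 3.37-fold higher and the retinol esterifying enzyme Lrat 2.20-fold higher. The summed level of the stellate markers was 516 to 868 CPM in the combination, 248 to 502 CPM in chow and 855 to 1139.6 CPM in vehicle. In whole liver, more cells of a type and more RNA per cell cannot be told apart, here and in the results below. The list of stellate cell activation and TGF-beta signaling had 12 of 21 members higher and 3 lower, and 10 higher and 0 lower without chow mouse 8. Its activation marker Acta2 did not pass without that mouse (log2 -0.09, adjusted p = 0.846), and Tgfb2, a TGF-beta ligand, was 4.49-fold higher without overlap.

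Markers of lipid-associated macrophages remained above healthy liver. Of 12 tested markers, 9 were higher than in chow and none lower (median log2 fold change 1.64), and in vehicle 10 were higher (median 2.67). Against vehicle, 4 markers were lower in the combination and none higher. Of 12 Kupffer cell markers 3 were higher and 3 lower (25% each, against 17.4% and 15.0% of all genes). The count higher was 6 without chow mouse 2 and 5 without chow mouse 7.

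Gpnmb, a transmembrane glycoprotein of lipid-loaded macrophages at chr6:49036546-49070929 on the plus strand, was between 0.208 and 1.98 CPM, with a median of 0.876, in chow and between 6.63 and 129.8 CPM, with a median of 46.3, in the combination. All combination mice were above all chow mice (log2 5.84 ± 0.57, adjusted p = 4.23e-11). Vehicle was at 45.9 to 82.8 CPM (median 68.2), and the combination did not pass against it (log2 -0.25 ± 0.39, adjusted p = 0.686). Trem2, the lipid-sensing receptor of these cells, was between 0.0901 and 0.978 CPM, with a median of 0.50, in chow and between 1.70 and 14.6 CPM, with a median of 10.3, in the combination, without overlap (log2 4.16 ± 0.45, adjusted p = 5.2e-10). The elastase Mmp12 was at 0.118 to 0.821 CPM (median 0.471) in chow and 3.47 to 27.5 CPM (median 12.2) in the combination, a 26.3-fold difference without overlap (adjusted p = 1.2e-09), and it was lower than in vehicle (log2 -1.33 ± 0.35, adjusted p = 0.00465). Itgax and Lpl, which code for the integrin CD11c and lipoprotein lipase, were 8.11-fold and 4.40-fold higher with overlap. The lowest combination values of Gpnmb, Trem2 and Mmp12, 6.63, 1.70 and 3.47 CPM, were all those of combination mouse 3. Over all genes, leaving this mouse out gave 4853 calls against chow (4570 with it) and 2344 against vehicle (2953 with it). These were the highest and the lowest count of their comparisons with single mice left out. The summed level of the list overlapped between the groups, starting at 308 CPM in chow and at 346 CPM in the combination, although single members did not.

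Among Kupffer cell markers, the scavenger receptors Cd163 and Marco were lower. Cd163 was at 6.26 to 46.1 CPM (median 13.5) in chow and 0 to 10.9 CPM (median 0.505) in the combination (log2 -3.24 ± 0.93, adjusted p = 0.00551). Only combination mouse 3, at 10.9 CPM, lay within the chow range, and the other 7 were at most 1.01 CPM. Without it the log2 fold change of Cd163 was -5.34. Marco was 6.07-fold lower than in chow (log2 -2.60 ± 0.83, and -3.19 without combination mouse 3) and higher than in vehicle (log2 2.82 ± 1.0, adjusted p = 0.0358). Cd5l, a secreted macrophage protein, was 2.11-fold higher (adjusted p = 0.00489). The resident-cell genes Clec4f (log2 0.72 ± 0.32) and Timd4 (log2 -0.62 ± 0.50) did not pass, although Clec4f passed without chow mouse 2 (adjusted p = 0.0237) or 7 (adjusted p = 0.0449).

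**Figure D5:**
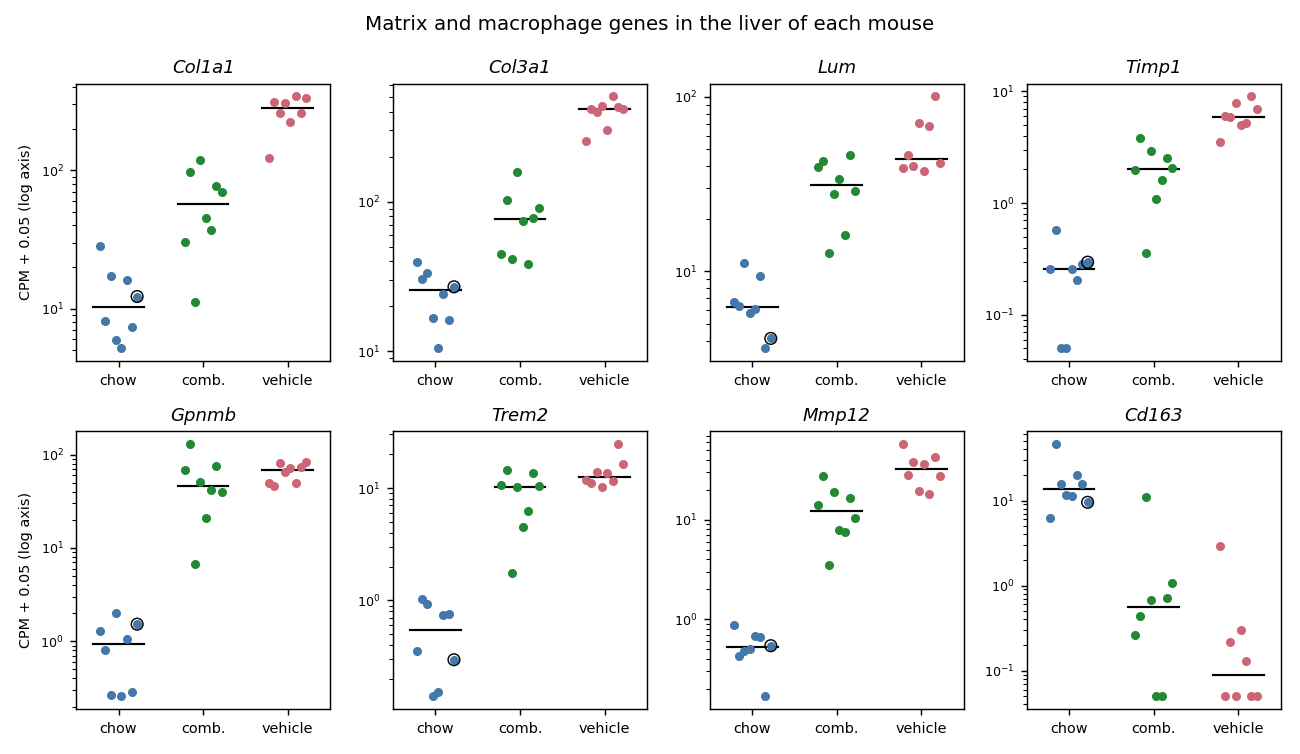
Level of 4 matrix genes and 4 macrophage genes in each mouse (CPM plus 0.05, log axis), drawn as for the sterol genes. Lum, Gpnmb, Trem2 and Mmp12 are above chow in all 8 combination mice, Col1a1, Col3a1 and Timp1 overlap chow, and for Cd163 a single combination mouse lies in the chow range.

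Other immune lists were also above chow. All 9 tested genes of MHC class II antigen presentation were higher (median log2 fold change 1.47, and 2.06 without chow mouse 8), 13 of 21 chemokines and receptors were higher with none lower, and 12 of 18 interferon-stimulated genes were higher with none lower (14 higher without chow mouse 8). H2-Aa, a class II chain, was at 17.7 to 230.4 CPM (median 32.3) in chow and 52.3 to 315 CPM (median 135) in the combination. The highest chow value was again that of mouse 8, and the fold change was 2.77 with it (log2 1.47 ± 0.34, adjusted p = 0.000697) and log2 2.24 without it. The chemokine receptors Ccr2 of monocytes and Cx3cr1 of monocytes and tissue macrophages were 4.53-fold and 6.02-fold higher and both were below vehicle (log2 -1.22 ± 0.29 and -0.98 ± 0.31). Ifit2 and Ifi44, induced by type I interferon, were 4.38-fold and 4.38-fold higher without overlap, whereas Irf7 did not pass (log2 0.05 ± 0.13). Of 10 monocyte and neutrophil markers 6 were higher and 2 lower, and 7 and 2 without chow mouse 8. The count of lower markers fell to 1 in 9 of the 16 fits without 1 mouse. Of 11 T and NK cell markers 5 were higher and 1, Gzma, lower, and the counts were 6 and 0 without chow mouse 8, while only 2 were higher without combination mouse 2. Gzma was at 19.4 CPM in chow mouse 8 and at most 0.828 CPM in the other chow mice. None of 7 B and plasma cell markers passed, where 5 were higher than chow in vehicle. The ductular markers had 7 of 12 higher, and 10 without chow mouse 8, among them Spp1, osteopontin, at 42.4 to 192 CPM (median 158) against 20.8 to 49.4 CPM (median 30.5) (log2 2.03 ± 0.40, adjusted p = 0.000102). In the cell cycle list 10 of 21 genes were higher and 1 lower, against 18 higher in vehicle, and 15 were lower in the combination than in vehicle. The number higher than in chow ran from 6 without combination mouse 4 to 12 without chow mouse 8. Mki67, a marker of proliferating cells, was at 0.592 to 4.18 CPM (median 1.26) in chow, 1.31 to 9.61 CPM (median 3.93) in the combination and 7.76 to 22.2 CPM (median 13.7) in vehicle (combination against chow log2 1.43 ± 0.38, adjusted p = 0.00321).

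Fat storage genes were partly back from the vehicle level, while lipid synthesis genes remained above chow. Of 21 lipid droplet and steatosis genes, 9 were higher than in chow and 2 lower (median log2 fold change 0.37), 8 and 1 without chow mouse 8, and 10 were lower than in vehicle. Of 20 genes of fatty acid and triglyceride synthesis, 14 were higher than in chow and 2 lower (median 0.85), 13 and 3 without chow mouse 8, and in vehicle 12 were higher and 3 lower. Directly against vehicle, 5 synthesis genes were higher in the combination and none was lower.

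Cidea, a droplet protein that is nearly silent in healthy liver, was at 0 to 0.832 CPM (median 0.147) in chow, 0.13 to 5.27 CPM (median 1.04) in the combination and 25.3 to 67 CPM (median 47.2) in vehicle. It was 6.62-fold above chow (log2 2.73 ± 0.82, adjusted p = 0.0080), but did not pass without combination mouse 4 (log2 1.88, adjusted p = 0.0954), rose to log2 3.42 without chow mouse 5, and was far below vehicle (log2 -4.92 ± 0.47, adjusted p = 4.11e-11). Cidec was 4.50-fold above chow and below vehicle by log2 -2.69 ± 0.44. Plin2, the main coat protein of hepatocyte droplets, did not pass against chow (log2 0.37 ± 0.15, adjusted p = 0.0526) but passed in 5 of the 16 fits without 1 mouse, and Cfd, the adipose protein adipsin, did not either (log2 -0.33 ± 0.94). Cd36, a fatty acid receptor, remained high without overlap, at 49 to 92.8 CPM (median 65.2) in chow and 194 to 379 CPM (median 267) in the combination (log2 2.04 ± 0.15, adjusted p = 3.01e-15). Vehicle was at 273 to 413 CPM (median 367) for Cd36 and did not pass against the combination (adjusted p = 0.064). Pnpla3, a lipase homolog induced by feeding, was 12.8-fold above chow without overlap and also above vehicle (log2 1.2 ± 0.44, adjusted p = 0.0437). Its relative Pnpla5, at chr15:84112356-84123175, had 1 read over all 8 chow mice and 212 over the 8 combination mice, a ratio of 177 with a 95% counting interval of 31.4 to 7024. The interval covers counting error only. Single combination mice ran from 0.145 to 7.42 CPM (median 0.758) for Pnpla5, and the only chow mouse with a read was at 0.103 CPM. The lowest combination value was therefore only narrowly above the highest chow value. Vehicle was at 0 to 2.19 CPM (median 1.11) for Pnpla5 and was itself above chow (adjusted p = 4.69e-05). The combination did not pass against vehicle for this gene (adjusted p = 0.127).

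Fasn, fatty acid synthase, was at 713 to 1996 CPM (median 1104) in chow and 895 to 7874 CPM (median 3059) in the combination, with overlap (log2 1.53 ± 0.36, adjusted p = 0.000884). The elongase Elovl6 was 3.34-fold above chow and above vehicle (log2 0.79 ± 0.27, adjusted p = 0.0323). Acacb and Scd2, a carboxylase and a desaturase of the pathway, were 2.77-fold and 3.90-fold higher without overlap. Srebf1, whose product drives the pathway, was 1.89-fold higher (adjusted p = 0.00443), and the diacylglycerol acyltransferase Dgat2 was lower (log2 -0.33 ± 0.11, adjusted p = 0.0124). Fatty acid oxidation and ketogenesis had 6 of 27 genes higher and 2 lower, with 7 higher without chow mouse 8 and 4 lower without chow mouse 2. Pdk4, which spares glucose when fat is burned, was 4.12-fold higher without overlap, whereas the transporter gene Cpt1a (log2 -0.20 ± 0.14) and Ppara (log2 -0.15 ± 0.19) did not pass.

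In glucose and glycogen metabolism 10 of 21 genes were higher and 4 lower, and 9 and 4 without chow mouse 8. Slc2a4, the insulin-responsive transporter GLUT4 of muscle and fat at chr11:69942539-69948188, was between 0.205 and 2.09 CPM, with a median of 0.57, in chow and between 9.13 and 23.5 CPM, with a median of 14.4, in the combination, without overlap. The difference was 17.6-fold (log2 4.14 ± 0.38, adjusted p = 5.69e-12), and vehicle lay between, at 1.45 to 7.74 CPM (median 3.38) (combination against vehicle log2 1.80 ± 0.30, adjusted p = 1.47e-05). Pklr, the pyruvate kinase that ends glycolysis in hepatocytes, was 1.84-fold higher. Pck1, of gluconeogenesis, was 1.87-fold lower (adjusted p = 0.00893), while G6pc, which releases free glucose, was 2.43-fold higher (adjusted p = 0.00894). Lepr, the leptin receptor at chr4:101717404-101815352, was between 2.18 and 9.78 CPM, with a median of 3.27, in chow and between 29.1 and 144 CPM, with a median of 85.3, in the combination (log2 4.02 ± 0.37, adjusted p = 1.0e-11). It did not overlap chow, and vehicle was lower than the combination, at 5.68 to 24.3 CPM (median 14.3) (log2 2.56 ± 0.33, adjusted p = 1.22e-07).

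Many hepatocyte genes were still below healthy liver, and many of them were above untreated disease. Of 25 genes of the urea cycle and amino acid catabolism, 13 were lower than in chow and none higher (median log2 fold change -0.44), where all 25 were lower in vehicle (median -1.19), and 19 were higher in the combination than in vehicle. Of 26 subunits of oxidative phosphorylation, 18 were lower with a median of -0.28, and 14 without chow mouse 8. Of 38 cytochromes P450 of families 1 to 3, 19 were lower and 5 higher, and 15 were lower without chow mouse 8. Of 8 hepatocyte markers, 6 were lower than in chow and all 8 in vehicle.

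Alb, albumin, was at 111964 to 186125 CPM (median 121063) in chow and 61160.1 to 107894 CPM (median 84229.6) in the combination, without overlap (log2 -0.71 ± 0.14, adjusted p = 6.69e-05), and above vehicle (log2 0.66 ± 0.14, adjusted p = 0.000323). The glycine methyltransferase Gnmt was 1.92-fold lower without overlap and the aminotransferase Agxt 2.20-fold lower. Cth, which makes cysteine, and Bhmt, which remethylates homocysteine, were 2.33-fold and 2.73-fold lower. Cps1, the first enzyme of the urea cycle, did not pass against chow (log2 -0.20 ± 0.20, adjusted p = 0.459) and was above vehicle (log2 1.33 ± 0.20, adjusted p = 1.75e-06).

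Cyp2f2, a periportal cytochrome, was at 1275 to 2565 CPM (median 1807) in chow and 220.3 to 615 CPM (median 519) in the combination, without overlap (log2 -2.01 ± 0.34, adjusted p = 9.19e-06), and did not pass against vehicle (log2 -0.20 ± 0.33). The pericentral caffeine oxidase gene Cyp1a2 was 3.04-fold and Cyp2c54 3.56-fold lower, both without overlap and both above vehicle (log2 0.72 ± 0.22 and 1.78 ± 0.37). Cyp2c38 was 2.24-fold higher without overlap. Cyp2b10, the classical target of the receptor CAR, was at 109 CPM in chow mouse 8 and at most 5.50 in the other chow mice, and its log2 fold change went from -3.68 to -1.29 without that mouse. Of 24 CAR and PXR target genes 15 were lower and 1 higher, with 12 lower without chow mouse 8, and the carboxylesterase Ces2a was 3.22-fold lower without overlap. In bile acid synthesis 5 of 15 enzymes were lower, including Cyp27a1 of the acidic pathway (log2 -0.51 ± 0.09, no overlap) and Cyp7b1 (log2 -1.21 ± 0.26), while Cyp7a1, the rate-limiting enzyme, did not pass (log2 -0.78 ± 0.35, adjusted p = 0.0826). Of 15 bile acid and organic anion transporters 7 were lower, among them the uptake carrier Slc10a1 (log2 -0.47 ± 0.14, no overlap) and the canalicular pump Abcc2 (log2 -0.54 ± 0.12).

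Of 20 acute phase proteins, 2 were higher than in chow (10%) and 3 lower (15%), against 17.4% and 15.0% of all genes. In vehicle 14 were lower (70%, against 26.5% of all genes). For the combination, the count of lower members ran from 1 without chow mouse 2 to 9 without combination mouse 6. That of higher members ran from 1 without combination mouse 6 to 4 without chow mouse 2. Hamp, the iron hormone hepcidin, was 2.55-fold lower than in chow (adjusted p = 0.0208) and above vehicle (log2 1.48 ± 0.47, adjusted p = 0.0181). Saa3 was 3.19-fold higher than in chow, and Serpina3n 1.57-fold, though Serpina3n did not pass without combination mouse 6 (log2 0.30, adjusted p = 0.175). Orm2, an orosomucoid, was called lower (log2 -2.46 ± 0.74, adjusted p = 0.00781), but this rested on chow mouse 2, at 2025 CPM where the other chow mice had at most 184 CPM. Without that mouse the log2 fold change was 0.58 and did not pass (adjusted p = 0.423). Endoplasmic reticulum chaperones had 2 of 20 genes lower and none higher, below the share of all genes. Hepatocyte transcription factors had 5 of 20 lower, where 15.0% of all genes were lower. The count was 3 without combination mouse 6, 8 when combination mouse 3 was left out, and 6 without chow mouse 8. The 5 included Hnf4a (log2 -0.38 ± 0.14, adjusted p = 0.0248, and 0.0551 without combination mouse 6) and Foxa3 (log2 -1.02 ± 0.19, adjusted p = 4.63e-05).

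In the growth hormone and IGF list 2 of 16 genes were higher and 5 lower, and 1 and 5 without chow mouse 8. Igf1, the circulating growth factor made by liver, was at 495 to 779.8 CPM (median 664) in chow and 417 to 536 CPM (median 475) in the combination (log2 -0.48 ± 0.12, adjusted p = 0.00139). Its carrier Igfals was 1.72-fold lower without overlap and the receptor gene Ghr 1.36-fold lower. Another IGF carrier, Igfbp3, was below chow in the combination (log2 -0.59 ± 0.19, adjusted p = 0.017) and above chow in vehicle (log2 0.91 ± 0.19, adjusted p = 5.86e-05). In the FGF21 list 2 of 8 were higher and 2 lower, and 2 and 3 without chow mouse 8. Fgf21 itself was 2.83-fold above chow (adjusted p = 0.00598, and log2 2.14 without chow mouse 1), at 1.69 to 3.83 CPM (median 2.93) against 0.123 to 3.38 CPM (median 0.828). Fgfr1, a receptor, was 1.73-fold lower (adjusted p = 0.00563). The co-receptor gene Klb missed the threshold with 8 chow mice (log2 -0.34 ± 0.14, adjusted p = 0.0575) and passed with 7 (adjusted p = 0.0391) and without combination mouse 1 or 3.

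Of 19 clock genes 5 were higher and 6 lower, and 4 and 7 without chow mouse 8. The number higher fell to 1 without combination mouse 6 and to 3 without combination mouse 5. Arntl, which codes for the clock activator BMAL1, was at 0.208 to 3.15 CPM (median 0.365) in chow and 1.04 to 24.4 CPM (median 3.85) in the combination (log2 3.33 ± 0.53, adjusted p = 3.4e-06, and log2 4.24 without chow mouse 6). Npas2, a partner of BMAL1, was 7.69-fold higher (log2 2.94 ± 0.75, adjusted p = 0.00185), but did not pass without combination mouse 6 (log2 1.65, adjusted p = 0.0595). The outputs Dbp and Ciart were 2.53-fold and 3.63-fold lower. The hour at which each liver was taken is not in the labels.

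Beside the lists, genes were named by a rule that used this comparison itself, so their values describe and do not test them. With an adjusted p under 0.05 with and without chow mouse 8, a mean of at least 1 CPM over the 16 mice and no overlap between groups, 354 genes qualified, 161 higher and 193 lower. The 10 largest increases were Pnpla5, Cyp2a4, Gpnmb, Cyp2b13, Mmp12, Mmp7, Trem2, Slc2a4, Cyp2b9 and Lepr. Mmp7, the matrilysin of injured epithelium, was at 0 to 0.652 CPM (median 0.113) in chow, 0.771 to 7.89 CPM (median 3.67) in the combination and 0.931 to 13.3 CPM (median 3.76) in vehicle. The 10 largest falls were Serpina1e, Clec2h, Gm3839, Slc13a2, Raet1e, Capn8, Raet1d, Sqle, Susd4 and Grm8. Clec2h, a lectin-like receptor ligand, was at 2.54 to 68.8 CPM (median 14.1) in chow and 0 to 1.59 CPM (median 0.25) in the combination. Its highest chow value was that of mouse 8, without which its log2 fold change went from -5.28 to -4.78. Raet1d and Raet1e, ligands of the receptor NKG2D, were 13.2-fold and 14.1-fold lower, and both were below vehicle (log2 -1.25 ± 0.35 and -1.44 ± 0.39). They are close copies, and their split is uncertain. Susd4, a complement inhibitor that is also in the male-biased list, was 9.28-fold lower, and the dicarboxylate transporter Slc13a2 14.5-fold lower (log2 -3.85, and -3.26 without chow mouse 8). The calpain Capn8 was 13.7-fold lower. The metabotropic glutamate receptor gene Grm8 was 9.22-fold lower, with 3.70 CPM in combination mouse 3 and at most 0.558 CPM in the other 7, without which its log2 fold change went from -3.20 to -5.00. The predicted gene Gm3839 was 20.8-fold lower.

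A further set was chosen for a difference between vehicle and chow within 0.5 on the log2 scale, whether or not that difference passed. Its largest increases were Cyp2b9, Hao2, Cyp4a14, Slc22a29 and Nt5e. Hao2, a peroxisomal hydroxyacid oxidase, was 6.14-fold higher than in chow, and Slc22a29, of the organic anion transporter family, 4.31-fold. Nt5e, the enzyme CD73 that makes adenosine, was at 3.38 to 6.27 CPM (median 4.94) in chow, 8.79 to 25.2 CPM (median 12.2) in the combination and 2.91 to 11 CPM (median 4.26) in vehicle. Its largest falls were Sort1, Abcc3, Oxld1, Plcg1 and Acy3. Sortilin (Sort1), a sorting receptor, was at 23.2 to 38.3 CPM (median 28.2) in chow and 8.33 to 22.6 CPM (median 14.4) in the combination, and below vehicle (log2 -0.86 ± 0.19, adjusted p = 0.00101). Abcc3, a basolateral export pump, was 1.72-fold lower, Plcg1, phospholipase C gamma, 1.70-fold, Oxld1 1.71-fold and the aminoacylase Acy3 1.58-fold. Vehicle was itself below chow for Oxld1 (log2 -0.45 ± 0.14, adjusted p = 0.0076), Acy3 (log2 -0.36 ± 0.12, adjusted p = 0.00831) and Plcg1 (log2 -0.24 ± 0.10, adjusted p = 0.0319). The combination did not pass against vehicle for Oxld1 (adjusted p = 0.0998) or Acy3 (adjusted p = 0.0646). This set was chosen for vehicle near chow and the combination away from chow. Its tests against vehicle therefore describe these genes and do not test them.

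Another set was chosen for a small difference between combination and vehicle, within 0.25 on the log2 scale. Its largest increases over chow were Gpnmb, Mmp7, Rad51b, Tbc1d31 and St6galnac4. Rad51b, of recombinational DNA repair, was at 0.27 to 4.14 CPM (median 1.15) in chow, 8.70 to 21.1 CPM (median 15.2) in the combination and 12.4 to 22.8 CPM (median 16.1) in vehicle. Its log2 fold change against chow was 3.47, and 4.09 without chow mouse 2. Tbc1d31, a centrosomal protein, was 5.36-fold above chow, and the sialyltransferase St6galnac4 4.71-fold. Its largest falls were Slc13a2, Sqle, Osbp2, Msmo1 and Gsta2. Osbp2, an oxysterol-binding protein, was 7.07-fold below chow, and the glutathione transferase Gsta2 4.72-fold, at 5.17 to 19.8 CPM (median 11.4) against 30.5 to 96.5 CPM (median 49.4).

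The sample numbers rise with gaps, for which no reason is given. They were grouped here into 4 series (A to D), and series A and C span gaps of their own. Both groups have mice in 3 of the series. Series A has 4 combination and 2 chow mice, series B 2 and 1, and series C 2 and 3. Chow mice 7 and 8 are in the fourth series, which holds no combination mouse. In series A, B and C, the difference of combination against chow in mean log2 CPM was -4.19, -3.60 and -4.09 for Sqle, 5.22, 6.28 and 5.82 for Gpnmb, and 4.54, 9.21 and 5.71 for Cyp2b9. These genes were chosen for groups that do not overlap, which fixes the direction in every series, so only the sizes are given.

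Set directly against the high-dose monotherapies, few genes separated the combination, and the counts turned on single mice. Against high-dose zalfermin 71 genes passed (0.503%), and leaving out 1 mouse gave 13 (without combination mouse 4) to 109 genes (without combination mouse 2). Against high-dose semaglutide 266 genes passed (1.89%), with 126 (without high-dose semaglutide mouse 6) to 366 genes (without combination mouse 2). Of the 35 genes named by the rule, Rad51b (log2 1.52 ± 0.32, adjusted p = 0.016), Nt5e (log2 0.96 ± 0.24, adjusted p = 0.0433) and Cyp4a14 (log2 1.33 ± 0.34, adjusted p = 0.0486) were higher than under high-dose zalfermin. Against high-dose semaglutide, Cyp2b13 (log2 2.84 ± 0.55, adjusted p = 0.00211), Cyp4a14 (log2 1.39 ± 0.34, adjusted p = 0.0165), Nt5e (log2 1.13 ± 0.24, adjusted p = 0.00438), Lepr (adjusted p = 0.0466) and Hao2 (adjusted p = 0.0469) were higher. Serpina1e (log2 -3.20 ± 0.75, adjusted p = 0.0123), Clec2h (adjusted p = 0.0271), Plcg1 (adjusted p = 0.00297) and Oxld1 (adjusted p = 0.0212) were lower. For Sqle the differences were log2 0.30 ± 0.45 against high-dose zalfermin and -0.28 ± 0.44 against high-dose semaglutide, and for Gpnmb they were 0.76 ± 0.40 and 0.28 ± 0.39, none of them past the threshold.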

How the data were processed

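Frozen liver samples taken at the end of dosing from 56 male mice, 8 in each of 7 groups, were profiled by RNA-seq of polyadenylated transcripts with a stranded kit. The authors deposited unnormalized read counts per gene for each mouse. The study's methods name STAR with GRCm38 and Ensembl annotation, and the submitters' processing notes name Trim Galore 0.6.4 and Salmon 1.9.0. The program behind the deposited counts and its use of strand are not given in the sources used here, so antisense and overlapping genes cannot be told apart with certainty. Groups came from the treatment and diet labels, which describe separate mice.

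Of 21935 genes, 4352 had no read, and the 14105 with at least 5 reads in at least 3 mice were tested. Counts were scaled by TMM and fitted with edgeR 4.0.16 (R 4.3.3) by the quasi-likelihood F test over all 7 groups without covariates, with Benjamini-Hochberg adjustment and a threshold of 0.05. The standard error of a log2 fold change is its size divided by the square root of F. The biological coefficient of variation was 22.6%. CPM used the normalized library sizes, and mean log2 CPM a prior count of 2. The TMM factors were 0.708 to 0.897 in the chow mice and 0.905 to 1.03 in the combination mice. Small differences, such as the median of the oxidative phosphorylation list, depend on this scaling. Total counts per mouse were 5228187 to 20885786, and the counting interval given for 1 gene covers counting error only.

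Named genes had an adjusted p under 0.05 with and without chow replicate 8, a mean of at least 1 CPM over the 16 mice and no overlap. They were the 10 largest changes each way, then the 5 each way with vehicle within 0.5 of chow on the log2 scale, and the 5 each way with the combination within 0.25 of vehicle. The members, gene lists and tests were chosen with earlier results of these data known. Alternatives were DESeq2 1.42.0 (Wald test, and its size factors in edgeR), no filter and a stricter filter (10 reads in 8 mice), only the 2 groups compared, the sample number series as a covariate, and each mouse left out in turn. The fit was tested on simulated data in which few genes differed between the groups, unlike these data. It recovered 45 of 67 genes changed 1.5-fold, 56 of 67 changed 2-fold and 64 of 66 changed 4-fold. Of 175 calls in the simulation, 10 were false. Promoters came from RefSeq and gene positions from the GENCODE annotation of GRCm38. Figures were drawn with matplotlib 3.10.9. A few genes are not reported here.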

Additional observations from a re-analysis of the deposited data

Results flagged for a closer look

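Dixon's criterion was applied to 98 groups of 8 values (named genes and summed marker lists, in chow and in the combination). In 16 of them 1 mouse was set apart from the rest. The criterion flags about 1 in 20 groups by chance when values are normally distributed. Levels in CPM need not be, and the named genes were chosen from these same values, so the 16 cannot be compared with that rate. Of the 16, 11 were in chow and 5 in the combination, and 7 were chow mouse 8.

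Chow mouse 8 had the highest summed levels of epithelium markers (2135 CPM, the others at most 45.8), of B and plasma cell markers (320.1 CPM, the others at most 49.6), of T and NK cell markers (36.2 CPM, at most 5.68) and of monocyte and neutrophil markers (233 CPM, at most 56.8). It was also highest for Cyp2b9 (34.8 CPM, at most 9.85), Slc13a2 (10.5 CPM, at most 3.23) and Gsta2 (96.5 CPM, at most 58.7). In other chow mice, Serpina1e reached 14968 CPM in mouse 7 (the others at most 8347), Capn8 4.85 CPM in mouse 7 (at most 2.78) and Rad51b 4.14 CPM in mouse 2 (at most 1.74). The single Pnpla5 read of the chow group, 0.103 CPM, was in mouse 1.

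In the combination group, Cyp2b13 was 21.5 CPM in mouse 4 (the others at most 5.79), Serpina1e 148 CPM in mouse 5 (at most 56.4) and Grm8 3.70 CPM in mouse 3 (at most 0.558). Gm3839 was lowest in mouse 7, at 0.0950 CPM (the others at least 0.521), and Acy3 in mouse 2, at 40.8 CPM (the others at least 54.2).

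Among the list and named genes reported here, 3 were called in opposite directions against the same chow mice in the combination and in DIO-MASH vehicle, and the direct test between these groups also passed. The log2 fold changes of combination and vehicle were -0.59 and 0.91 for Igfbp3, 0.52 and -0.64 for the retinol saturase Retsat, and 0.40 and -0.76 for the sulfotransferase Sult1d1.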

How the results depend on the processing

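The count for combination against chow kept within 1.5 times 4570 in each alternative run, from 3241 genes with only these 2 groups fitted, and from 3974 (without chow replicate 7) to 4853 (without combination replicate 3) with single mice left out. Its balance did turn, from 2457 higher and 2113 lower to 2219 higher and 2436 lower with the stricter filter. With single mice left out, vehicle against chow ranged from 7469 to 7937 genes and combination against vehicle from 2344 to 3294. Without low-dose semaglutide replicate 6 in the fit, 4677 genes passed for combination against chow and 319 for combination against high-dose semaglutide. The counts against the monotherapies moved. Against high-dose zalfermin, 71 genes became 169 by DESeq2, 38 with no filter, 130 with the number series as covariate, 16 with only the 2 groups fitted, and 13 to 109 with single mice left out. Against high-dose semaglutide, 266 became 415 by DESeq2, 124 with only the 2 groups fitted, and 126 to 366 with single mice left out. The cause was not tested. The genes named by the rule were chosen for groups that do not overlap, so their unchanged direction is no sign of stability. Directions turned for other genes. With single mice left out, the log2 fold change ran from -1.10 to 1.94 for Cldn7, -0.21 to 0.78 for Des, -0.53 to 2.03 for Epcam, -3.04 to 0.25 for Gzma, -1.84 to 1.86 for Krt19, -4.56 to 0.32 for Lgals4, -1.66 to 1.35 for Plac8, -8.91 to 1.31 for Tff2 and -5.58 to 0.98 for Vil1, the highest value always without chow replicate 8, and from -3.27 to 0.58 for Orm2, the highest without chow replicate 2. By DESeq2 the log2 fold change became 0.24 for Gzma, 0.27 for Lgals4, 1.06 for Plac8, 1.12 for Tff2 and 0.87 for Vil1. With the number series as covariate it became 0.25 for Acta2, 0.75 for Des, 1.70 for Epcam, 1.08 for Plac8 and 0.23 for Vil1. No paired analysis was possible because the labels give the mice no replicate numbers shared between groups. Genes with few reads, such as Pnpla5 and Gm3839 in one group, have folds limited by depth.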

Other observations

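The remaining gene groups are described by their counts, and no set was tested. Over all genes, 17.4% were higher and 15.0% lower than chow in the combination, and 28.9% and 26.5% in vehicle. Of 18 apolipoprotein and lipoprotein assembly genes, 1 was higher than in chow and 6 lower, 1 and 4 without chow mouse 8, against 14 lower in vehicle. Apoa4, an intestinal and hepatic apolipoprotein, was 4.28-fold above chow (log2 2.10 ± 0.27, adjusted p = 4.07e-08) and below vehicle (log2 -1.27 ± 0.26). Apom, the carrier of sphingosine-1-phosphate, was lower without overlap, at 209 to 380.1 CPM (median 281) in chow and 154 to 189 CPM (median 164) in the combination. In retinoid metabolism 5 of 19 genes were higher and 4 lower, and 6 and 3 without chow mouse 8. The retinol saturase Retsat was above chow in the combination (log2 0.52 ± 0.18, adjusted p = 0.0196) and below chow in vehicle (log2 -0.64 ± 0.18), and Rdh11, a retinal reductase, was 2.10-fold lower.

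In the list of integrated stress response targets 4 of 16 genes were higher and 3 lower. Asns, asparagine synthetase, was at 0.615 to 14.8 CPM (median 7.46) in chow and 0.186 to 0.621 CPM (median 0.469) in the combination (log2 -4.02 ± 0.50, adjusted p = 1.93e-08), and below vehicle (log2 -1.41 ± 0.51, adjusted p = 0.0425). Atf3, a stress-induced factor, was 3.02-fold higher without overlap. Of 18 NRF2 targets 1 was higher and 6 lower, and without chow mouse 8 the counts were 2 and 4. The glutathione transferase gene Gsta1 changed from log2 -2.64 to -0.52 without that mouse. In the list of ERK feedback genes 4 of 14 were higher and 2 lower, with 1 lower without chow mouse 8 and 0 without chow mouse 7. The inhibitor Spred1 was 1.55-fold higher without overlap (adjusted p = 5.06e-06), and the phosphatase Dusp6 was 1.72-fold higher. Of 16 pericentral genes 2 were higher and 3 lower, with glutamine synthetase, Glul, 1.56-fold higher and Cyp2e1 1.45-fold lower.

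Of 9 sinusoidal endothelial markers 2 were higher and 2 lower, with 4 lower without chow mouse 2, and of 9 vascular endothelial markers 4 were higher and none lower, among them Cd34 (log2 1.78 ± 0.40, adjusted p = 0.000526). None of the 5 adipocyte markers had enough reads to be tested. Of 7 pancreas markers 2 were tested and 1, Cela1, was lower than in chow (log2 -1.44 ± 0.20), and of 5 red blood cell markers 1, Alas2, was lower (log2 -1.48 ± 0.19).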
